A study of Rattus norvegicus with 8 samples.

Results

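The heat shock proteins followed here are 10 genes, Hspb1, Cryab, Hspa1a, Hspa1b, Hspa8, Hsp90aa1, Hspd1, Hsph1, Dnajb1 and Bag3, measured in the dentate gyrus (DG) of ovariectomized rats after status epilepticus (SE). They were found as every non-control spot whose gene name in the array files equals one of these symbols, which gave 39 of 43379 spots, 21 probes and 10 of 35199 gene names. The genes were chosen by their array levels in E2-replaced against oil-injected rats, already known when the list was drawn up, so their differences between the groups are given as a description and carry no test.

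All 8 rats were adult female Sprague-Dawley, ovariectomized 1 week before injections began, and in all of them SE was induced by kainic acid, at 16 mg/kg according to the sample records. The 4 rats named COS received oil and the 4 rats named CES received estradiol benzoate (E2 replacement), 4 doses of 2 μg every 24 h, of which 2 preceded and 2 followed SE, and SE was ended after 5 h with pentobarbital. The study's methods differ from these records in the kainic acid dose, in the drug that ended SE and in the timing of the injections and of tissue collection, and the files do not settle which holds. Rats without SE were not analysed here, so the levels below compare 2 hormonal states after SE and say nothing of the levels before it. Each of 4 arrays, all on 1 slide, carried a pair of rats of the same group, 1 labeled with Cy3 (replicates 1 and 3) and the other with Cy5 (replicates 2 and 4). The array was thus nested in the group, while the dye was balanced between the groups. Each channel is taken as a separate rat, since the methods count 4 animals per group.

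Heat shock proteins are chaperones, which keep other proteins from aggregating and help them to fold, and many of them are made in quantity when a cell is stressed. The stress-inducible genes are switched on by heat shock factor 1 (Hsf1), which binds repeats of a short heat shock element near the start of its targets. In the brain the small heat shock protein Hspb1 and the inducible HSP70 are widely used as signs of cells that were stressed by seizures, ischemia or heat, whereas Hspa8 is present in unstressed neurons at high levels.

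Levels are log2 values of the background-subtracted signal of a spot over the median of the valid spots of its channel, so that 0 is the channel's median spot and a step of 1 is a doubling. A spot counted as valid where the foreground reached 2 times the local background or more. Valid spots ran from 32381 to 38553 per rat in COS and from 30690 to 35352 in CES, and 21332 genes had a spot that was valid in all 8 rats. All 10 heat shock genes were among them, were well above background in all 8 rats and had no saturated reading. The median standard error of a CES minus COS difference over all genes was 0.20, and the number of rats limits the precision. Over all genes the median difference was -0.25 on this scale, so each heat shock gene is also given relative to that median. On dentate identity, Calb1 and C1ql2, markers of granule neurons, were well above background in all rats, whereas Prox1 and Tdo2 were well above background in 0 rats and Rbfox3 has no probe under that name.

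The library labelled CES replicate 2 stood apart from the rest of its group. Across all genes its levels correlated with those of the 4 COS rats at r = 0.974 to 0.983 and with those of the other 3 CES rats at 0.955 to 0.964. The other CES rats correlated with each other at 0.977 to 0.989 and with COS at 0.933 to 0.944. These correlations are across genes, which are not independent replicates. Whether it carries the right label cannot be told from these files, and every mean, SD and fold over 4 CES rats below includes it. The differences of the 10 genes and the counts and medians over them are therefore also given without it. A difference over the other 3 CES rats is one of plain means. A difference given as without a rat comes from the fit over all genes, which holds a term for the dye, so these can differ.

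Sequence upstream of the gene start was taken from RefSeq (assembly GRCr8) to show which heat shock genes hold letters that match a heat shock element. The promoter table covered 7 of the 10 genes and not Cryab, Hspa1b or Hsp90aa1. The letters searched on both strands were GAANNTTC and TTCNNGAA for a heat shock element, and for an extended element either of these with a further GAA or TTC in alternation after any 2 bases, so that the extended form contains overlapping copies of the shorter ones. Matches stand in capitals, and each stretch ends at the base before the gene start:
Hspb1 (GRCr8 chr12:26432302-26432450, minus strand): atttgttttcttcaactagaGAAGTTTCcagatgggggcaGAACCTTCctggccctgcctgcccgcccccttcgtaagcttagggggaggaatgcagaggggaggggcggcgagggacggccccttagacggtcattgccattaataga
Bag3 (GRCr8 chr1:192533308-192533459, plus strand): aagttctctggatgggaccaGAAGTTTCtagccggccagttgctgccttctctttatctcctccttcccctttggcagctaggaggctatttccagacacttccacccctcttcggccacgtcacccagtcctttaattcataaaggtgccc
Hsph1 (GRCr8 chr12:10427243-10427367, plus strand): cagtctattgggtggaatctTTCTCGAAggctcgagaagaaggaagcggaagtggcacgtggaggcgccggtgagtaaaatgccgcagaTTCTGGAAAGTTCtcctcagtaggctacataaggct
Hspa8 (GRCr8 chr8:50080281-50080513, plus strand): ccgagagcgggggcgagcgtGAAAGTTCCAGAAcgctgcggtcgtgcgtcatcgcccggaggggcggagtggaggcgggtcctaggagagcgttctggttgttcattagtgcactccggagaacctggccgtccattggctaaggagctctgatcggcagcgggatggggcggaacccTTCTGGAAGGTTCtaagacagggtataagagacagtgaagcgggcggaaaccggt

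A heat shock element matched in the promoter windows of 6 of the 7 genes, against 15.9% of the 33469 windows of the same length (300 bases, 250 of them before the start) in the table. The extended element matched in 3 of the 7, Hspa8, Hspd1 and Hsph1, against 0.798% of all windows. In Hspb1 the matches lay at positions -129 to -122 and -109 to -102 from the gene start, and in Bag3 at -132 to -125. In Hspa8, with 2 extended elements, they lay at -213 to -201 and -55 to -43. The Hspa1a window held neither form, which says only that these letters are not in that window. The full palindromic estrogen response element was in 0 of the 7 windows and in 0.0269% of all windows. A match is a description of sequence and not evidence of binding in these rats.

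**Figure D1:**
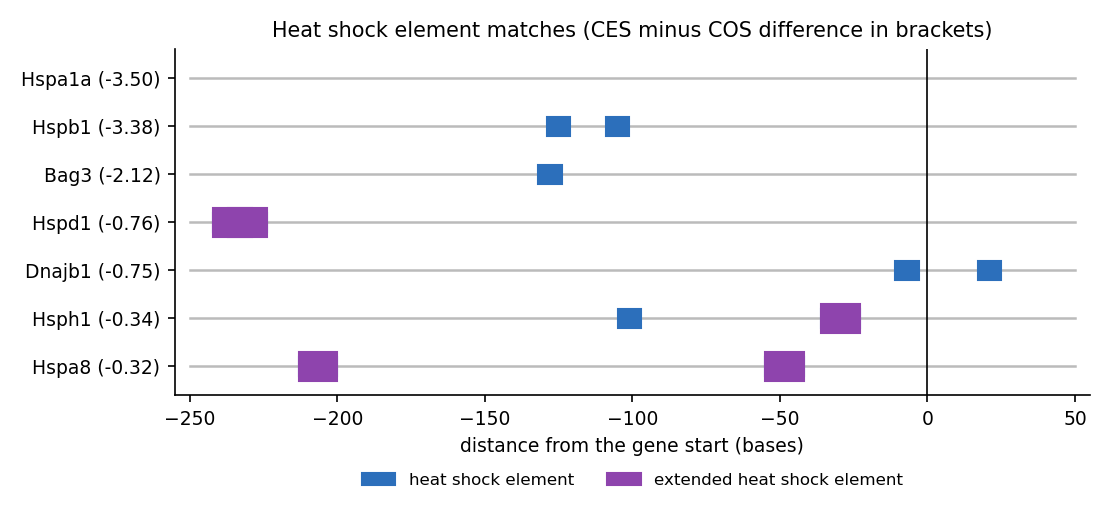
Matches to the heat shock element (blue) and the extended element (purple) along the promoter windows of the 7 heat shock genes in the RefSeq table; the x axis is the distance in bases from the gene start and each row gives the gene and its difference between CES and COS in log2 units. The genes with extended elements, Hspa8, Hsph1 and Hspd1, had differences of -0.32, -0.34 and -0.76, and the genes with shorter elements alone, Hspb1, Bag3 and Dnajb1, were at -3.38, -2.12 and -0.75, while Hspa1a with no match was at -3.50.

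Hspa1b had the widest difference of the 10 genes, and Hspa1a and Hspb1 followed in an order that changed between alternatives. Hspa1a and Hspa1b lie near each other and encode nearly identical forms of the stress-inducible HSP70, a chaperone that binds unfolded stretches of protein. Hspa1b was at 7.26, 7.81, 7.34 and 7.27 in COS replicates 1 to 4. It was at 1.88, 7.53, 2.28 and 2.02 in CES replicates 1 to 4. Replicates 1, 3 and 4 of CES lay far below every COS rat, while the library labelled CES replicate 2 lay within the COS range, so the groups overlapped. The CES minus COS difference was -3.99 (standard error 0.97, n = 4 rats per group), or -3.74 once the all-gene median is taken off, a level 15.9 times higher in COS. Over the other 3 CES rats the difference was -5.36 and the level was 41.1 times higher in COS.

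Hspa1a was at 5.14, 5.43, 5.14 and 4.82 in COS and at 1.64, 4.78, 0.40 and -0.29 in CES. The groups did not overlap, but the library labelled CES replicate 2 missed the lowest COS rat by only 0.04. The difference was -3.50 (standard error 0.87), and -4.55 over the other 3 CES rats. The Hspa1b value rests on 1 probe spotted 10 times per array, whose replicate spots had SDs of 0.14 to 0.30 within a rat, far below the distance between the CES rats. A second probe under that name was well above background in 1 COS rat and 1 CES rat and did not enter. The Hspa1a and Hspa1b probes lie 966 and 1384 bases apart on chromosome 20 (rn4, the build of the array files). In RefSeq (GRCr8) the genes of these names are 11610 bases apart, Hspa1a spans 4045 bases and carries Hspa1b among its synonyms, and the accession behind the Hspa1b probes had no match in the table. The probes of both names may therefore measure 1 locus, and their values are not evidence on 2 separate genes. The Hspa1a probe lies in coding sequence, where these genes are most alike, and is shown because RNA of both genes may bind it.
Hspa1a probe (rn4 chr20:3956838-3956897, plus strand): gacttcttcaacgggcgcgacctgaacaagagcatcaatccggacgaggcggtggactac

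Hspa8, the constitutive HSP70 that also strips clathrin from vesicles, was nearly level between the groups. It was at 7.11, 7.52, 7.41 and 7.22 in COS and at 6.56, 7.16, 7.15 and 7.13 in CES. CES replicate 1 lay below the rest of its group and the groups overlapped. The difference was -0.32 (standard error 0.19), or -0.06 relative to all genes. It was -0.37 over the other 3 CES rats and -0.18 without CES replicate 1, and its direction turned with the scaling, to 0.01 after loess and 0.13 over probes well above background. The 4 probes of Hspa8 ranged from -0.70 to -0.002 in their differences. Hsph1, an HSP110 that acts as an exchange factor for HSP70, was at 4.57, 4.28, 3.92 and 3.44 in COS and at 3.56, 4.52, 3.58 and 3.19 in CES. The groups overlapped, with COS replicate 4 below 3 of the CES rats. The difference was -0.34 (standard error 0.32), or -0.09 relative to all genes. It was -0.61 over the other 3 CES rats by plain means. In the fit it ran from -0.68 to -0.10 as single rats were left out (without CES replicates 2 and 4), and was 0.11 over probes well above background.

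The small heat shock proteins, which hold unfolding proteins without using ATP, were both lower in CES. Hspb1 (Hsp27), which astrocytes produce strongly after injury, was at 8.30, 8.42, 7.96 and 8.50 in COS. It was at 3.70, 8.04, 5.46 and 2.46 in CES. The library labelled CES replicate 2 lay within the COS range, and the other CES rats lay below it but spread widely among themselves (SD 1.51, against 0.24 in COS). The difference was -3.38 (standard error 0.94), a level 10.4 times higher in COS, and -4.42 over the other 3 CES rats, where it was 21.4 times higher. The single Hspb1 probe, spotted 10 times per array, had replicate spot SDs of 0.09 to 0.32.

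Cryab (αB-crystallin), an abundant small heat shock protein of astrocytes and oligodendrocytes, was at 7.84, 8.12, 7.79 and 7.61 in COS and at 4.86, 6.76, 5.56 and 5.12 in CES. The groups did not overlap, with a gap of 0.85 between the lowest COS rat and the library labelled CES replicate 2. The difference was -2.26 (standard error 0.34), a level 4.81 times higher in COS, and -2.66 over the other 3 CES rats. Cryab was the gene among those with wide differences in which the library labelled CES replicate 2 lay farthest from COS, at 59.4% of the way from the mean of the other CES rats to the COS mean.

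The co-chaperones differed from each other in size. Bag3, which couples HSP70 to small heat shock proteins and directs clients to autophagy, was at 5.44, 5.44, 5.57 and 4.96 in COS and at 2.41, 4.96, 3.01 and 2.57 in CES. Only the library labelled CES replicate 2 reached the COS rats, matching the lowest of them. The difference was -2.12 (standard error 0.47), a level 4.33 times higher in COS, and -2.69 over the other 3 CES rats, where it was 6.44 times higher. Dnajb1 (Hsp40), the J-domain protein that delivers clients to HSP70, was at 4.64, 4.54, 4.52 and 3.84 in COS and at 3.33, 4.17, 3.80 and 3.23 in CES. The groups overlapped only through the library labelled CES replicate 2 and COS replicate 4. The difference was -0.75 (standard error 0.26), or -0.50 relative to all genes, and -0.93 over the other 3 CES rats.

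Hsp90aa1, the stress-responsive form of cytosolic HSP90, and Hspd1, the mitochondrial chaperonin HSP60, had smaller differences. Hsp90aa1 was at 7.23, 7.76, 7.63 and 7.44 in COS and at 6.47, 7.54, 7.29 and 7.38 in CES. CES replicate 1 was lowest and the other CES rats lay within the COS range. The difference was -0.34 (standard error 0.22), or -0.09 relative to all genes, and its 4 probes ranged from -0.42 to -0.28. It was -0.47 over the other 3 CES rats and -0.13 without CES replicate 1, and over probes well above background it was 0.11. Hspd1 was at 5.996, 5.88, 6.10 and 5.69 in COS and at 4.77, 5.68, 5.25 and 4.93 in CES. The groups did not overlap, by a margin of 0.01 at the library labelled CES replicate 2. The difference was -0.76 (standard error 0.22), or -0.50 relative to all genes, its 4 probes ranged from -0.81 to -0.59, and it was -0.93 over the other 3 CES rats.

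**Figure D2:**
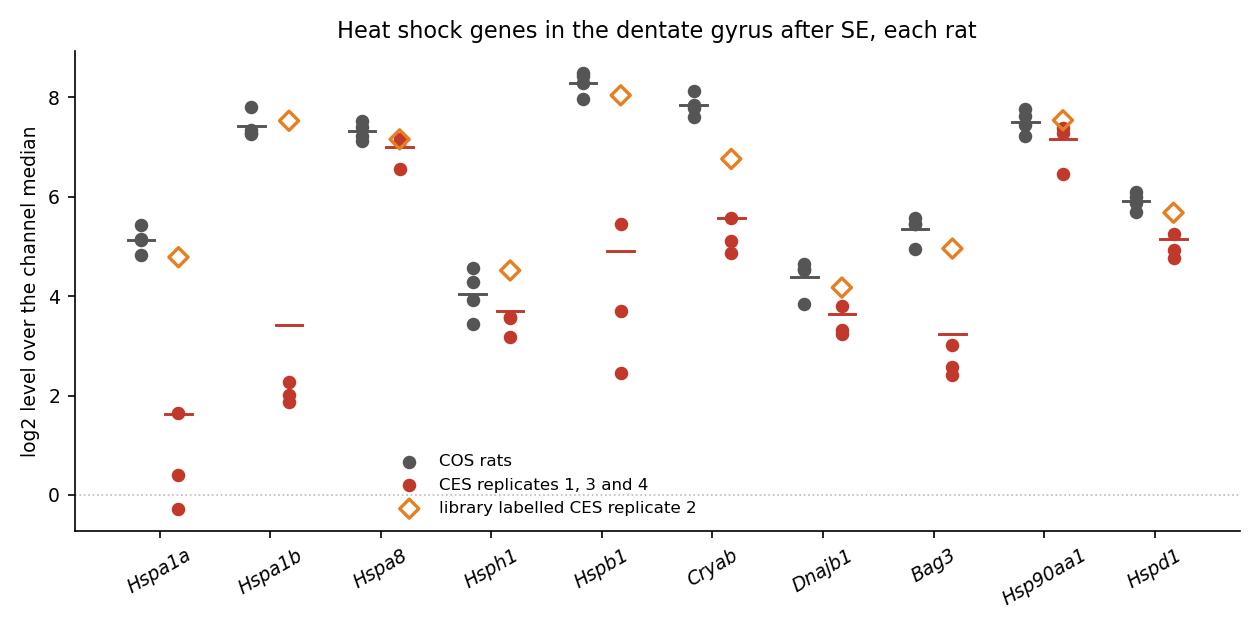
Log2 level over the channel median (y axis) of the 10 heat shock genes in each rat, with COS rats in grey, CES replicates 1, 3 and 4 in red, the library labelled CES replicate 2 as an open diamond, and group means over 4 rats as bars. Hspa1b stood at 7.26 to 7.81 in COS and at 1.88 to 2.28 in CES replicates 1, 3 and 4, while Hspa8 and Hsp90aa1 overlapped between the groups.

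Of the 10 genes, 7 passed the adjusted threshold of 0.05 in the limma fit over all genes, all of them lower in CES, where 28.3% of all genes passed as lower and 34.1% passed in either direction. The values of the groups did not overlap for 3 of the 10 (Cryab, Hspa1a and Hspd1), against 19.8% of all genes lower in CES without overlap and 1.61% higher without overlap. Since the genes were picked with this contrast known, nothing is read from these counts. The median difference of the 10 was -1.44, against -0.25 over all genes. The count of 7 was 1 after loess, after quantile normalization and without COS replicate 3 or CES replicate 1, while the median of the 10 stayed between -1.83 and -0.99 under all 23 alternatives.

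Without the library labelled CES replicate 2 the median was -1.83 and 8 of the 10 passed, where 32.7% of all genes passed as lower and 8.7% as higher. The other 3 CES rats lay below all 4 COS rats in 7 of the 10 genes, which held for 22.6% of all genes, and 7.95% of all genes had those rats above all COS rats. The exceptions were Hspa8, Hsp90aa1 and Hsph1. In that library 7 of the 10 genes lay within the COS range, as did 48.4% of all genes. In CES replicates 1, 3 and 4 the shares of all genes within that range were 47.8%, 46.4% and 37.9%. The library labelled CES replicate 2 stood 102% of the way from the other CES rats to COS in Hspa1b, 94.3% in Hspb1, 92.3% in Hspa1a, 85.2% in Bag3 and 59.4% in Cryab. Over the 537 genes of the array that were lower by more than 2 in the other CES rats, its median place was 59.6% of the way. Over the 82 genes higher by more than 2 its median place was 87.0%.

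**Figure D3:**
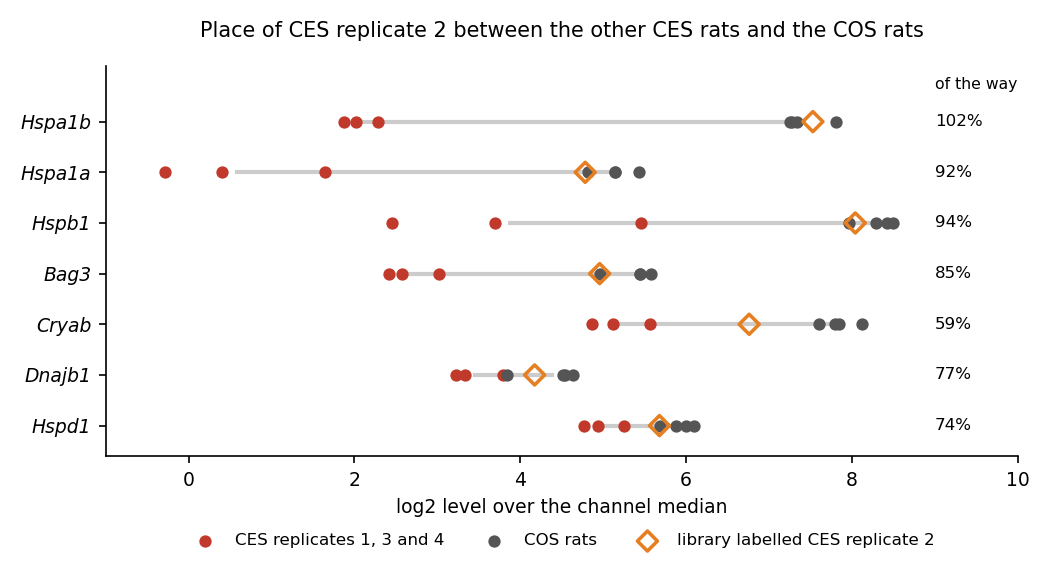
Log2 level (x axis) of the 7 heat shock genes in which CES replicates 1, 3 and 4 (red) lay below all COS rats (grey), with the library labelled CES replicate 2 as an open diamond; the grey line joins the means of the red and grey points and the percentage gives the place of the diamond along it. In Hspa1b, Hspb1 and Hspa1a it stood at 102%, 94% and 92% of the way to COS, and in Cryab at 59%.

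The dye was balanced between the groups, and the differences were recomputed within each dye, with 2 rats per group. Within Cy3, which holds CES replicates 1 and 3, Hspa1b differed by -5.22, Hspa1a by -4.12, Hspb1 by -3.55, Bag3 by -2.79 and Cryab by -2.60. Within Cy5, which holds CES replicates 2 and 4, the same genes differed by -2.77, -2.88, -3.21, -1.44 and -1.93. Hsph1 differed by -0.67 within Cy3 and by -0.01 within Cy5. On this scale all 10 genes were lower in CES within both dyes. Relative to the all-gene median of the dye, Hsp90aa1 was at 0.07 and Hsph1 at 0.20 within Cy5, against -0.24 and -0.37 within Cy3. The genes were chosen by this contrast in these same rats, so the shared sign is a description and no support. Arrays cannot be told apart from the groups in the same way, since each held rats of 1 group.

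**Figure D4:**
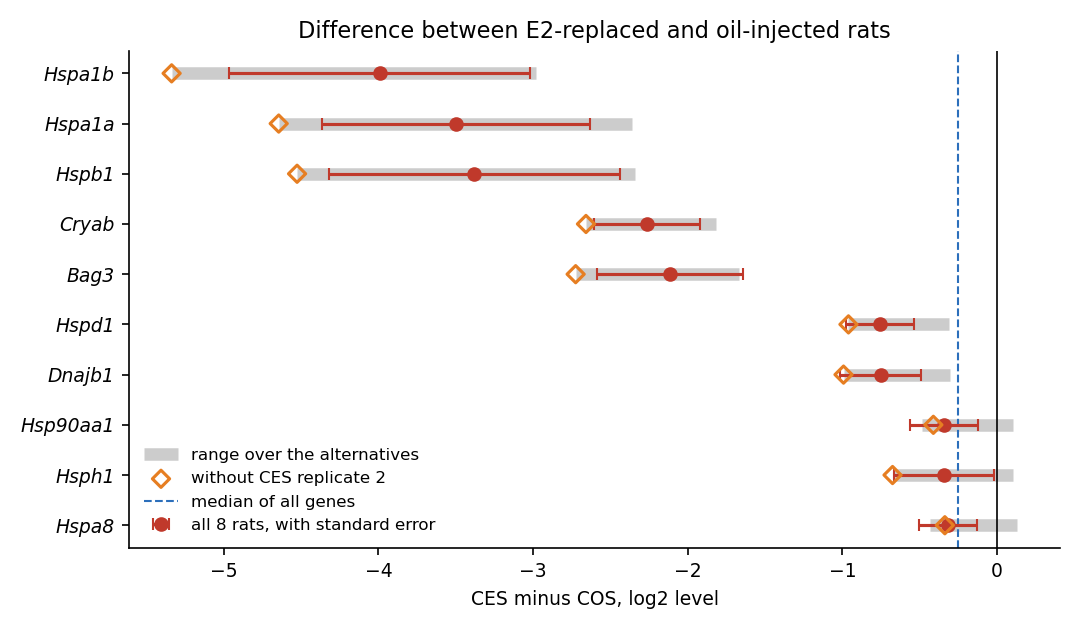
CES minus COS difference of each heat shock gene in log2 level (x axis), as red points with the standard error over 8 rats, as open diamonds without the library labelled CES replicate 2, and as grey bars for the range over the 23 alternatives; the dashed line is the median of all genes, -0.25. The ranges of Hspa1b, Hspa1a, Hspb1, Cryab and Bag3 ended at -2.98, -2.36, -2.34, -1.82 and -1.67, and the ranges of Hsp90aa1, Hsph1 and Hspa8 crossed 0.

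The spread among rats differed between the groups in part of the 10 genes. Among the COS rats the SD of the 10 genes ran from 0.18 (Hspd1) to 0.49 (Hsph1), with a median over all genes of 0.38. Among the CES rats the SD was 2.74 for Hspa1b, 2.42 for Hspb1, 2.25 for Hspa1a and 1.17 for Bag3, each above that of at least 97.4% of all genes, whose median was 0.39. The remaining heat shock genes ran from 0.29 (Hspa8, above 32.4% of all genes) to 0.57 (Hsph1, above 70.9%) and 0.84 (Cryab, above 89.4%). Without the library labelled CES replicate 2, the SD of Hspa1b among the other CES rats was 0.20 and that of Bag3 0.31, while Hspb1 kept an SD of 1.51 and Hspa1a one of 0.98.

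The genes whose pattern over the 8 rats was nearest to that of Hspa1b, the heat shock gene with the widest difference, were Cd44, Lgals3, Lcn2, H19 and the transcript TC575730. Likeness was the root mean square difference of the log2 levels after centring each gene on its mean, which was 0.52 for Cd44 and 0.60 for TC575730. Cd44 was at 5.41 to 5.92 in COS, at -0.12 to 0.52 in CES replicates 1, 3 and 4 and at 4.32 in the library labelled CES replicate 2. Among the other heat shock genes Hspa1a ranked 14th, Hspb1 24th, Bag3 131st and Cryab 173rd in likeness to Hspa1b among all genes, and Hspa8 ranked 6371st.

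Markers of cell types moved with the groups in part. The summed level of the granule neuron markers ran from 3.65 to 4.48 in COS and from 3.14 to 3.68 in CES. Of the 4 quantified 3 were lower (C1ql2, Dsp and Tdo2), where 28.3% of all genes passed as lower. Among these, Tdo2 was well above background in 0 rats and Dsp in 3 COS and 2 CES rats. For the endothelial markers the ranges were 5.13 to 5.62 and 4.29 to 5.25, with 3 of 5 lower and 1 higher. Pecam1 was well above background in 0 rats. Of the lower ones, Flt1 and Tek lay below the channel's median spot in every rat, and Flt1 was well above background in only 2 CES rats. For the microglial markers the ranges were 4.82 to 5.39 and 4.59 to 5.09, with 2 of 6 lower and 1 higher. Itgam (-1.92) and Csf1r (-0.92) were lower and P2ry12 (0.93) was higher. Itgam was at 2.54 to 3.17 in COS and at 0.31, 2.39, 0.96 and -0.04 in CES replicates 1 to 4. The astrocyte markers overlapped, at 7.48 to 7.61 in COS and 7.25 to 7.84 in CES, with 1 of 6 lower and 2 higher. Aldh1l1 (1.23, adjusted p = 0.00652) and Gja1 (1.27, adjusted p = 0.0341) were higher in CES by limma. S100b was the lower one (-2.22, adjusted p = 0.0479 by limma). It was at 0.16 to 3.34 in COS and at 2.63, -0.18, -1.06 and -1.82 in CES replicates 1 to 4. Gfap, which did not pass, was at 5.65 to 6.09 in COS and at 3.57, 5.66, 5.59 and 4.06 in CES replicates 1 to 4. None of the 6 oligodendrocyte markers and none of the 5 quantified choroid plexus markers passed, and the choroid plexus sum was highest in COS replicate 2 (9.27). Over the other 3 CES rats the sums ran from 3.14 to 3.68 for granule neurons, 4.29 to 4.81 for endothelium, 4.59 to 5.09 for microglia and 7.29 to 7.84 for astrocytes. The part of these markers in the heat shock differences was not tested, and in whole tissue fewer cells of a type cannot be told apart from less RNA per cell.

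The rest of the heat shock system was read from lists of 78 further genes, of which 75 were on the array and 73 were quantified. Of these, 29 were lower in CES, 2 were higher and 42 did not pass, where 28.3% of all genes passed as lower and 5.8% as higher. Their median difference was -0.44, or -0.19 relative to all genes. The balance turned with the scaling, to 5 higher and 6 lower after loess, 6 higher and 4 lower when channels were scaled over spots valid in all rats, and 4 higher and 1 lower over probes well above background. Of the called genes named below, Hspb11 alone changed direction under an alternative, and it kept its call under 3 of the 22 that quantified it. The alternatives under which a call was lost were fewest for Hspb8 (2 of 23) and Hspa9 (2 of 22). Hspa9 was not quantified over probes well above background. They numbered 16 for Dnajb2, 15 for Stip1 and Hspbp1, 13 for Hspa14, Unc45a, Bag5 and Pdia4, and 12 for Hspa2 and Hsf1. Without COS replicate 3, 3 of the 19 named genes passed (Hspa9, Pdia4 and Dnajc3), and without CES replicate 1, 6 did. Without the library labelled CES replicate 2, 18 of the 19 passed and Hspb11 did not, and over all the lists 2 were higher and 32 lower.

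Among 6 other genes listed by name with the small heat shock proteins 2 were lower, and Hspb8, which forms a complex with Bag3, stood apart. It was at 3.65, 3.80, 4.19 and 3.40 in COS and at 0.35, 2.77, 0.86 and 0.01 in CES. The groups did not overlap, and the library labelled CES replicate 2 again lay nearest to COS. The difference was -2.76 (standard error 0.51, adjusted p = 0.00543 by limma), a level 6.79 times higher in COS, with -3.42 without the library labelled CES replicate 2 and an adjusted p of 4.52e-06 to 0.105 over the alternatives, at 0.0577 without COS replicate 3. Hspb11 differed by -0.44 (adjusted p = 0.0498 by limma) and by 0.01 over probes well above background. The list's median was -0.27, close to that of all genes.

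Among 8 other HSP70 and HSP110 genes 4 were lower and 1 was higher, with a median of -0.58. Hspa14, a ribosome-associated HSP70, differed by -1.28 (adjusted p = 0.0328 by limma), or by -0.76 without CES replicate 1, which was at 1.98 against 3.64 to 4.04 in the other CES rats. Hspa2 differed by -1.06 (adjusted p = 0.0177 by limma). Hspa12a, a distant and brain-rich relative, was higher by 0.56 (adjusted p = 0.0415 by limma), at 3.60 to 4.39 in COS and 4.02 to 4.78 in CES. Of 11 HSP90 genes and co-chaperones 3 were lower, with a median of -0.46, among them Stip1, the adaptor between HSP70 and HSP90 (-0.63, adjusted p = 0.0382 by limma), and Unc45a (-0.59, adjusted p = 0.0303 by limma). Hsp90ab1, the constitutive HSP90, differed by 0.13 and did not pass. Of 13 J-domain genes 2 were lower and 1 higher, with a median of -0.06: Dnaja1 (-0.75) and Dnajb2 (-0.54) were lower, while Dnajc6, the auxilin that works with Hspa8 in uncoating clathrin vesicles, was higher by 0.81 (adjusted p = 0.0147 by limma).

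Of 6 BAG proteins and other exchange factors 2 were lower, Hspbp1 (-0.59) and Bag5 (-0.57), with a median of -0.49. The cytosolic chaperonin, a ring that folds actin and tubulin, had 4 of its 8 subunits lower and 4 that did not pass, with a median of -0.50. Cct4 differed by -0.90 and Cct2 by -0.83 (adjusted p = 0.0110 and 0.0101 by limma). Of 7 mitochondrial chaperones 3 were lower, with a median of -0.66, including the protease Lonp1 (-0.95, adjusted p = 0.00978 by limma). Hspa9 differed by -1.11 but cleared the scanner software's background mark in 4 COS rats and in only 2 of CES. Hspe1, the partner of Hspd1, differed by -0.69 and did not pass.

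Of 10 chaperones of the endoplasmic reticulum 8 were lower, where 28.3% of all genes passed as lower. Their median was -0.66, or -0.40 relative to all genes. The count of 8 depended on the scaling, since over all the lists only 6 genes were lower after loess. Over probes well above background only 1 was. Dnajc3 was at 2.68 to 3.24 in COS and 1.54 to 2.15 in CES, a difference of -1.11 (adjusted p = 0.00488 by limma), and Pdia4 differed by -1.40 (adjusted p = 0.0276 by limma). Hspa5, the major HSP70 of this compartment, differed by -0.24 and did not pass. Of 4 heat shock factors and regulators 1 was lower: Hsf1, the activator of stress-inducible heat shock genes, was at 3.61, 3.68, 3.98 and 3.27 in COS and at 3.04, 3.05, 3.21 and 2.59 in CES. The groups did not overlap, by 0.06, and the difference was -0.66 (adjusted p = 0.0218 by limma, 0.00730 to 0.606 over the alternatives). The library labelled CES replicate 2 lay with the other CES rats in Hsf1, unlike in Hspa1b.

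**Figure D5:**
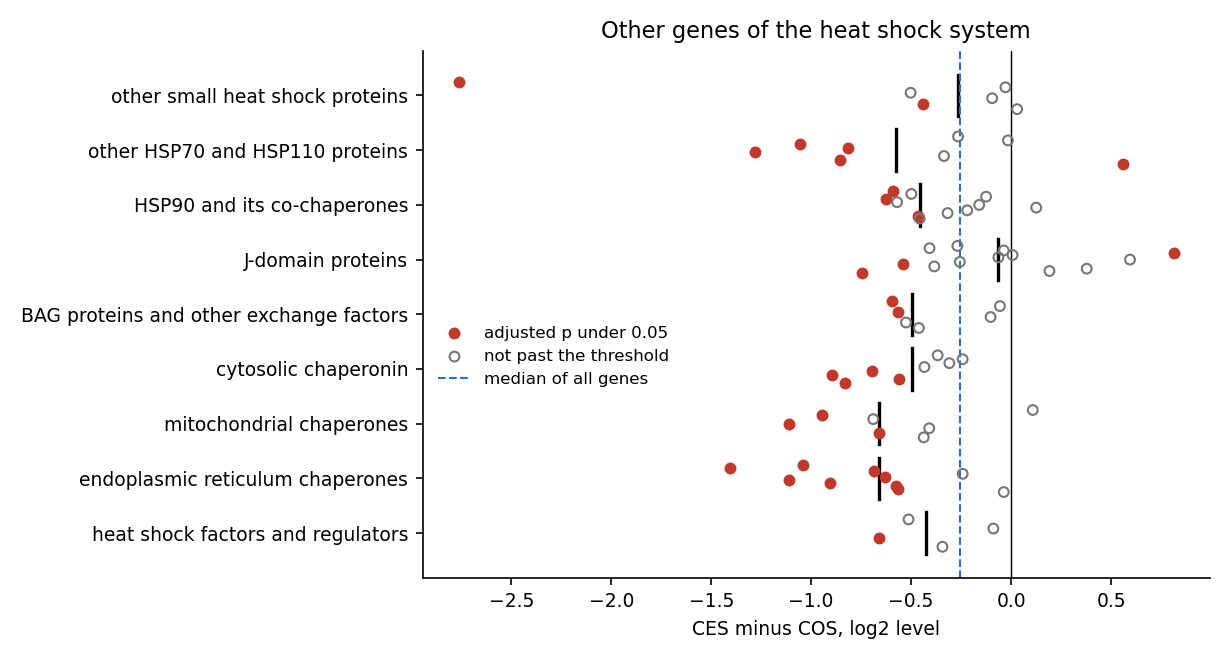
CES minus COS difference in log2 level (x axis) of 73 other heat shock system genes by list, filled where the adjusted p of limma was under 0.05 and open otherwise; black bars are list medians and the dashed line is the median of all genes, -0.25. Hspb8 stood at -2.76, beyond every other gene shown. Of the 10 endoplasmic reticulum chaperones 8 are filled, where 28.3% of all genes passed as lower, and that count depended on the scaling.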

How the data were processed

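Total RNA of the DG was hybridized by the authors to 4 Agilent 2-colour arrays with differently labeled rats of a group in each (Feature Extraction 10.7.3.1, per the labels). Per spot and channel, the deposited scanner files give the intensity and its local background, and the authors' deposited table holds log2 values that equal the log2 median signal minus background, centred per channel. Mean signal minus background median was divided by the median of valid spots of the channel, averaged per gene over spots valid in every rat, and log2-transformed. The groups were compared in limma 3.58.1 (R 4.3.3, statmod 1.5.0), with a fixed dye term and a random array block (correlation -0.0064), two-sided, with Benjamini-Hochberg adjustment over 21332 genes. Tested on simulated data of this layout with 200 changed genes, the fit recovered 76% of changes of 2 and 8% of changes of 1 in log2. In the data 34.1% of all genes passed, so the adjusted threshold was met more easily there than in the simulation. The simulated spread also held the dye effect, which was then added again. These shares are therefore not the power of the fit to the data.

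The 10 genes and the lists of other genes were chosen with earlier results of these data known. The lists were written from general knowledge of the families, not for how their genes moved. All 10 heat shock genes were named, with up to 2 called genes per list in each direction and the 5 genes most like Hspa1b. The called genes named are the widest of each list, so their adjusted p-values are no independent support. Probes of a gene were averaged, and 17 of 21 probes carried the same symbol in RefSeq. Same-numbered COS and CES rats deviated together (r = 0.32, 0.21, 0.29 and 0.34), and shared a dye, so the number was also tried as a replicate block. The CES rat with the highest such r was replicate 3, 2, 1 and 2 for COS replicates 1 to 4. Each of these shared the dye of the COS rat, but not always its number. The alternatives covered background correction, signal column, normalization, filters, terms of the fit, probes, names, the methods' t-test and each rat left out. The limma p-values set the group difference against the spread between these rats, part of which is borrowed from all genes. Since each array held rats of 1 group, they cannot separate array from group.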

Additional observations from a re-analysis of the deposited data

Results flagged for a closer look

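A sample was marked when it lay far from the rest of its group of 4 by Dixon's criterion, which chance alone meets in about 1 in 20 groups and which 3.23% of all genes met in COS and 3.70% in CES. Of 58 groups tested over the heat shock genes and the other named genes, 4 met it. Hspa1b in the library labelled CES replicate 2 (7.53) lay above the other CES rats (1.88 to 2.28). Hspa1b in COS replicate 2 (7.81) lay above the other COS rats (7.26 to 7.34). Hspa8 in CES replicate 1 (6.56) lay below the others (7.13 to 7.16). Dnajb1 in COS replicate 4 (3.84) lay below the others (4.52 to 4.64). The cause of these values was not tested.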

How the results depend on the processing

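The median difference of the 10 heat shock genes was negative under all 23 alternatives, from -1.83 to -0.99. Hspa8 turned to 0.0111 after loess, 0.132 over probes well above background, 0.0656 in the deposited log2 table and 0.0828 with channels scaled over spots valid in all rats. Under the last 3 of these Hsp90aa1 turned to 0.106, 0.0333 and 0.0560 and Hsph1 to 0.107, 0.0342 and 0.0569. Relative to the all-gene median, Hspa8 was at -0.044 after loess. On that relative scale Hspa8, Hsp90aa1 and Hsph1 were at -0.023, -0.050 and -0.049 over probes well above background. In the deposited table they were at -0.054, -0.087 and -0.086. Hspb11 turned to 0.00933 over probes well above background. The other 7 heat shock genes kept their direction under every alternative.

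Counts past the threshold are given for all genes, for the 10 heat shock genes and for the other heat shock system genes, against 7276, 7 and 31. They were 586, 4 and 1 with normexp, 3199, 1 and 7 without the filter on valid spots, and 4100, 4 and 14 when valid spots had to reach 3 times background. Over probes well above background they were 3103, 5 and 5. After loess 1 of the 10 and 11 of the other genes passed, after quantile normalization 1 and 11, in the log2 values as deposited 1 and 10, and with channels scaled over spots valid in all rats 1 and 10. The methods' t-test called 0, 0 and 0 after Benjamini-Hochberg, and 6103, 4 and 31 at an unadjusted p under 0.05, where limma had 9633 over all genes. With 1 rat left out the counts ran from 1171 to 8837, from 1 to 8 and from 3 to 40: they were 1171, 1 and 3 without COS replicate 3, 2988, 1 and 9 without CES replicate 1, and 4145, 4 and 14 without COS replicate 1. Without COS replicate 2 or 4, 18 and 20 of the other genes passed.

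The balance over all genes was 1238 higher and 6038 lower, and turned to 2910 and 2030 after loess, 3057 and 2226 after quantile normalization, 3275 and 1927 in the deposited values, 3348 and 1718 with channels scaled over spots valid in all rats, and 2223 and 880 over probes well above background. With the replicate block the counts were 7865, 7 and 33, which left the count of the 10 genes at 7. The all-gene median difference, -0.25 in the main fit, was 0.055 after loess and 0.059 after quantile normalization. It was 0.12 in the deposited values and 0.16 over probes well above background. Relative to the all-gene median, the median of the 10 genes was -1.18 in the main fit. Under those alternatives it was -1.17, -1.21, -1.18 and -1.14, in that order. The cause of these shifts was not tested. On simulated data with 4 rats per group and only 200 of 21332 genes changed, changes of 1 in log2 were mostly missed. In the data 34.1% of all genes passed, so the share missed there cannot be taken from the simulation.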
